A study of Anthoceros agrestis with 2 samples.

Results

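The ends of the 6 chromosome-scale scaffolds (AnagrOXF.S1 to AnagrOXF.S6, here chromosomes 1 to 6) of the hornwort Anthoceros agrestis were described by their cytosine methylation. An end was the first 500 kb or the last 500 kb of a chromosome, counted from position 1 and back from the last listed cytosine, and the 12 ends held 6000 of the 124405 1 kb bins of the 6 chromosomes. The other 118405 bins are called the rest. Thalli, the haploid plant body, of wild-type plants of the Oxford strain were grown for 4 weeks on agar under continuous white light, and 2 biological replicates were profiled by enzymatic methyl sequencing (EM-seq), which converts unmethylated cytosines enzymatically so that reads call each cytosine methylated or unmethylated. There was 1 group and no treated or mutant plants, so the comparison was between ends and rest within the same libraries. The replicate reports held 323429467 and 325691541 cytosine calls and the report of both replicates mapped together, here the merged report, held 648374160.

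In plants cytosines are methylated in CG, CHG and CHH contexts, where H stands for A, C or T. CG methylation is copied after replication by MET1-type methyltransferases, whereas in flowering plants non-CG methylation is kept mostly by chromomethylases that bind methylated histone H3 lysine 9, and methylation in all contexts marks silenced transposable elements (TEs). The DNA next to telomeres is in many organisms rich in repeats and shared between chromosomes, which also makes it difficult to assemble and to cover with uniquely mapped short reads.

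The outermost bases were read back from the listed cytosines of both strands, where n is a base that is A or T but not told apart. The tips of chromosomes 3 and 5 are shown because they let the absence of a telomere-type repeat at the scaffold tips be seen, with CG in capitals (AnagrOXF.S3:1-60, AnagrOXF.S3:19988381-19988440 and AnagrOXF.S5:1-60, forward strand, Oxford strain assembly of the study).
first tip of chromosome 3: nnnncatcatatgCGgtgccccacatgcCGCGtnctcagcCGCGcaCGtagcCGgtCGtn
last tip of chromosome 3: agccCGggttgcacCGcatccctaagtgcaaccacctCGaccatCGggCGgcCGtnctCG
first tip of chromosome 5: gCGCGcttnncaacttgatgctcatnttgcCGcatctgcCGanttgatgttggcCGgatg
None of the CG cytosines in the outermost 60 bases of the 12 ends had 10 reads. The plant telomere repeat CCCTAAA could be searched only as CCCTANN and its complement NNTAGGG. Each motif matched 0 to 2 times in the outermost 1 kb of each end, at most 1.4% of that 1 kb. Within the 12 ends, 1 run of at least 20 tandem units was found, with 20 units 80.9 kb from the last tip of chromosome 6. Longer arrays were found outside the ends, not all of them near a tip. On chromosome 6 a run of 296 units (2072 bp) began at 8233140, 3.54 Mb from the last tip. On chromosome 1 a run of 25 units began at 25113519, 7.23 Mb from the last tip. The longest run of each of these chromosomes lay nearer to its last tip. A run of 476 units (3332 bp) began at 30854819 on chromosome 1, 1.49 Mb from the last tip, and a run of 304 units began at 10759864 on chromosome 6, 1.01 Mb from the last tip. A stretch of each is shown with the determined bases in capitals (AnagrOXF.S1:30854889-30854944 and AnagrOXF.S6:10759934-10759989).
array on chromosome 1: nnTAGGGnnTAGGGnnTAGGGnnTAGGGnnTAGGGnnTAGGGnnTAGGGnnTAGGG
array on chromosome 6: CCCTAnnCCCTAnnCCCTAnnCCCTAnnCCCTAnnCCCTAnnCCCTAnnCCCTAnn
The arrays shown had means of 0.0546 (chromosome 1) and 0.36 reads (chromosome 6) per cytosine, and 0 and 15 of their cytosines had 10 reads. Those 15 had a level of 0%, so the methylation of these arrays was hardly measured. A shorter run of 28 units on chromosome 6 (8232809 to 8233004) had a mean of 9.3 reads. Its level was 0% over 39 cytosines with 10 reads. The cytosines of this repeat are all in CHH context. The scaffold tips were taken as ends of the assembly, since their distance from the telomeres was not known. Stretches of 100 to 108 bp without a listed cytosine on either strand, whose nature was not known, numbered 8 in the first end of chromosome 1, 4 in the last end of chromosome 4, 7 in the last end of chromosome 6 and 0 in the other ends. The rest of chromosomes 1 to 6 held 9, 18, 18, 5, 2 and 28 of them, in 118405 bins against 6000 bins of the ends.

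Read depth was lower at the ends than in the rest. The mean over the 12 ends of the ratio of reads per cytosine, end over rest, was 0.889 ± 0.01 (SD, n = 2 replicates), and 10 of the 12 ends had a lower mean than their rest. Over all listed cytosines, the merged report held a mean of 4.76 reads at the last end of chromosome 6 to 10.5 reads at the first end of chromosome 1, against 8.17 to 9.44 reads in the rest. Cytosines without any read made up 57.8% of the last end of chromosome 6, 32.8% of the first end of chromosome 1 and 27.8% of the last end of chromosome 1, against 7.81% to 21.9% in the rest. Fewer were unread than in their own rest at the last end of chromosome 3 (5.8%, against 9.83%), the last end of chromosome 5 (5.8%, against 7.88%) and the first end of chromosome 6 (16.6%, against 21.9%). Where cytosines without reads were left out, the mean ratio was 1.01, but it was below 1 at 8 of the 12 ends and ran from 0.853 at the last end of chromosome 1 to 1.53 at the first end of chromosome 1. The high mean of the first end of chromosome 1 came from 10 adjoining bins (256001 to 266000) with over 50 reads per cytosine, the only such bins of the ends. The 3 deepest held means of 353, 311 and 277 reads. In replicates 1 and 2 the deepest bin (261001 to 262000) held 179 and 175 reads, so the excess was in both libraries. Its CG level was 94.3% over 106 sites. Without such bins the ratio was 0.858.

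**Figure D1:**
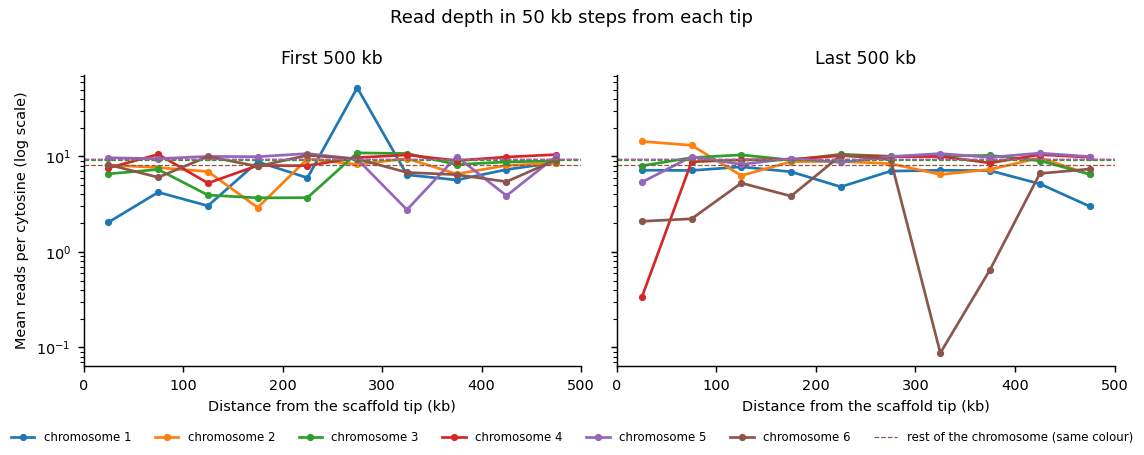
Mean reads per cytosine (log scale) of the merged report in 50 kb steps from the tip of each end, with the mean of the rest of each chromosome as a dashed line of the same colour. Depth at the first end of chromosome 1 reached 52.4 reads at 250 to 300 kb, while the outermost step of the last end of chromosome 4 had 0.335 reads and the last end of chromosome 6 had 0.0873 reads at 300 to 350 kb.

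All 10 ends of chromosomes 1 to 5 had a higher CG methylation level than the rest of their own chromosome. A level is the mean, over cytosines with at least 10 reads (5 in a replicate report), of the share of reads that called methylation. The CG level averaged 56.7% over these 10 ends and 30.7% over their rests. In the replicates, the ends averaged 57.5% ± 1.08 and the rests 31.6% ± 1.21, a difference of 25.9 ± 0.121 percentage points (SD, n = 2). The CHG level averaged 34.1% at these ends and 16% in the rest, and the CHH level 1.06% at the ends and 0.681% in the rest. Over all 12 ends, the mean difference was 20.9 ± 0.196 percentage points in CG, 14.4 ± 0.111 in CHG and 0.295 ± 0.0138 in CHH (mean of replicates, SD, n = 2). All 3 exceeded the replicate SD. At sites with 10 to 14 reads, where ends and rest have like depth, the CG difference in the merged report was 19.3 points, against 20.9 points at all sites with at least 10 reads. With 2 replicates, an exact two-sided sign-flip permutation test cannot give a p below 0.5, which is what it gave for each of them. Ends of 1 genome share their plants and libraries and both ends of a chromosome share 1 rest, so they were not treated as replicates.

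**Figure D2:**
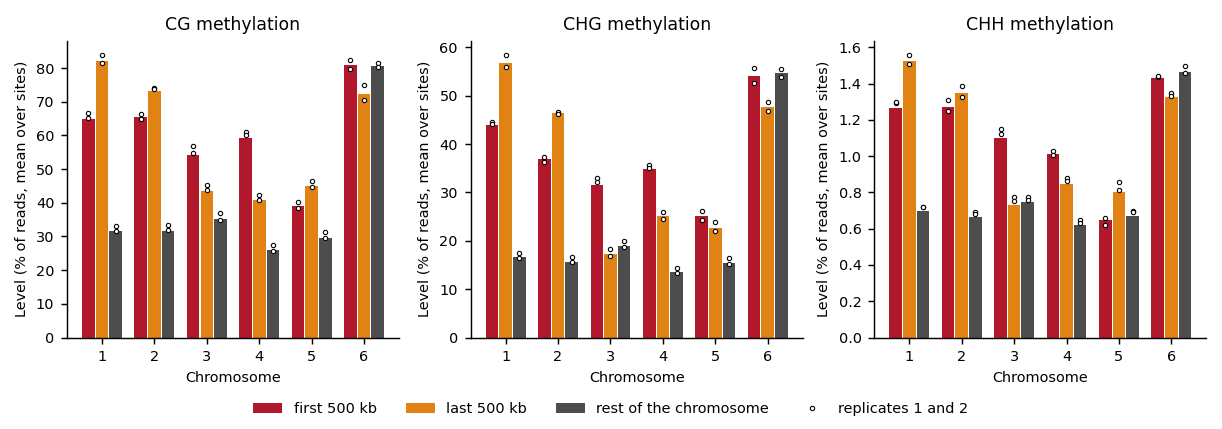
Methylation level in CG, CHG and CHH context for the first 500 kb, the last 500 kb and the rest of each chromosome, as bars for the merged report, with both replicates as open points. The last end of chromosome 1 reached 82% in CG against 31.6% in its rest, and on chromosome 6 neither end stood above the rest, whose CG level was 80.7%, by more than the replicate SD.

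The size of the difference varied widely between ends. At the last end of chromosome 1 the CG level was 83.9% and 81.5% in replicates 1 and 2, against 33.2% and 31.6% in its rest. Its difference of 50.4 percentage points in the merged report was the largest of the 12 ends at this length. For ends of another length the rest was redrawn as all bins outside ends of that length. For ends of 250 kb the difference of the last end of chromosome 1 was 47.1 points, below those of the first end of chromosome 3 (56.6 points, against 19.1 points at 500 kb), the first end of chromosome 4 (55.1 points) and the last end of chromosome 2 (49.7 points). The opposite end had 66.5% and 65%, 33.2 points above the rest in the merged report. On chromosome 2 the last end had 74% and 73.7% and the first end 66.2% and 64.9%, against 33.4% and 31.8% in the rest. The ends of chromosomes 1 and 2 thus held the highest levels among the ends of chromosomes 1 to 5. On chromosome 4 the first end had 61% and 60.1% and the last end 42.4% and 40.9%, against 27.5% and 25.8% in the rest. On chromosome 3 the first end had 56.8% and 54.7% and the last end 45.2% and 43.8%, against 36.9% and 35% in the rest. The smallest excess over the rest on these chromosomes, 8.35 points, was at the last end of chromosome 3. It was 16.6 points for an end of 250 kb and 0.276 points, within the replicate SD of 0.391, for an end of 1 Mb. On chromosome 5 the last end had 46.6% and 44.6% and the first end 40.3% and 38.3%, against 31.2% and 29.4% in the rest. In each of these 10 ends the values of both replicates lay above both values of the rest, so the replicates did not overlap. For the first end of chromosome 5 the direction depended on where the end was taken to stop. Its first 250 kb had a CG level 3.88 points lower and a CHG level 0.537 points lower than the rest redrawn for that length. That rest took in the inner 250 kb of both ends.

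Chromosome 6 was methylated along most of its length, and whether its ends stood above the rest depended on which sites were counted. Its first end had a CG level of 82.4% and 79.6% in replicates 1 and 2, against 81.6% and 80.5% in its rest, so that the replicates lay on both sides of it. Its last end had 75% and 70.4%, and the difference from the rest was -8.34 ± 2.43 points (mean of replicates, SD, n = 2). At this end only 8186 CG sites had 10 reads, and at sites with at least 20 reads it stood 9.58 points above the rest instead. The first end then stood 8.31 points above the rest in CG and 9.51 points in CHG. With the reads of each region pooled, the CG difference was 3.77 points at the first and 1.18 points at the last end. Under both of these settings 12 of the 12 ends lay above the rest in CG. Other settings went the other way. The last end differed from the rest by -15.8 points at sites with 10 to 14 reads, -11.3 points at sites with at most 27 reads and -26.6 points in bins with under 10% repeated 40-mers, where the first end differed by -6.1 points.

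In CHG context 9 of the 12 ends lay above the rest in the merged report and in both replicates, by 7.35 points (last end of chromosome 5) to 40.1 points (last end of chromosome 1). The last end of chromosome 3 was an exception among chromosomes 1 to 5. Its CHG level was 18.2% and 16.9% in replicates 1 and 2, against 20.1% and 18.7% in the rest, a difference of -1.82 ± 0.0423 points. This end thus had more CG and less CHG methylation than its rest, although its first 250 kb from the tip stood 1.39 points above the rest redrawn for that length in CHG. The CHH level, low everywhere, was above the rest in 8 of 12 ends, by a mean over all 12 of 0.299 points in the merged report and of 0.488 points for ends of 250 kb. It was 1.56% and 1.51% in replicates 1 and 2 at the last end of chromosome 1, the highest of the 12, against 0.718% and 0.721% in its rest. At the first end of chromosome 5 it was 0.659% and 0.621%, against 0.696% and 0.691% in the rest. Its CHH difference in the merged report, -0.0208 points, was within the replicate SD of 0.0238, and it was 0.0982 points at sites with at least 20 reads, 0.396 points for an end of 1 Mb and 0.023 points in bins with under 10% repeated 40-mers.

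The ends were also ranked among the full 500 kb windows of the rest of the same chromosome, as a description. The last end of chromosome 1 lay above all 62 windows of its rest in CG, CHG and CHH, and the last end of chromosome 2 above all 51. The highest such windows had CG levels of 77.9% on chromosome 1 and 73% on chromosome 2. The first ends of chromosomes 1, 2 and 4 were each exceeded in CG by 1 window, both ends of chromosome 5 and the last end of chromosome 4 by 2, the first end of chromosome 3 by 4 and the last end by 6 of 37. The ends of chromosome 6 were exceeded by 13 (first) and 17 (last) of 21 windows. CG levels as high as those of the ends therefore occurred in a minority of windows on chromosomes 1 to 5, and in most windows on chromosome 6. In CHH the last end of chromosome 3 was exceeded by 20 of 37 windows and the first end of chromosome 5 by 14 of 26, and in CHG the last end of chromosome 3 by 18.

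Within the ends the CG level was highest next to the tip on average, but the course inward differed from end to end. Over the 10 ends of chromosomes 1 to 5 the CG level averaged 81.1% in the outermost 50 kb, 63.9% at 50 to 100 kb, 68.1% at 100 to 150 kb, 65.1% at 150 to 200 kb, 68.6% at 200 to 250 kb, 52.9% at 250 to 300 kb, 43.5% at 300 to 350 kb, 59% at 350 to 400 kb, 48.6% at 400 to 450 kb and 60% at 450 to 500 kb. The CHG level followed, with 55% in the outermost and 36% in the innermost step. In the replicates these CHG levels were 52.5% ± 0.809 and 36.1% ± 0.357 (SD, n = 2). The CHH level was also higher at the tip, with 1.62% in the outermost and 1.09% in the innermost step. In the outermost 50 kb the ends spanned 47.1% (first end of chromosome 5) to 95.4% (first end of chromosome 1), all above the rest of their chromosome. The outermost step at the last end of chromosome 4 rested on 21 CG and 23 CHG sites. Its CHG level was 64.4% in the merged report but 40.2% and 39.5% in replicates 1 and 2. Without that end, the CG level of the remaining 9 averaged 79.9% in the outermost and 63.2% in the innermost step. Over all 12 ends the outermost step exceeded the innermost by 23.2 ± 0.772 percentage points (mean of replicates, SD, n = 2), and with steps of 100 kb by 14.3 points in the merged report. It was higher beyond the replicate SD at 8 ends and lower at 2, the last end of chromosome 1 (-37.2 points) and the first end of chromosome 5 (-32 points). Of the 100 steps on chromosomes 1 to 5, 47 lay above the 90th percentile of the 50 kb windows of their rest in CG, 48 in CHG and 29 in CHH.

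**Figure D3:**
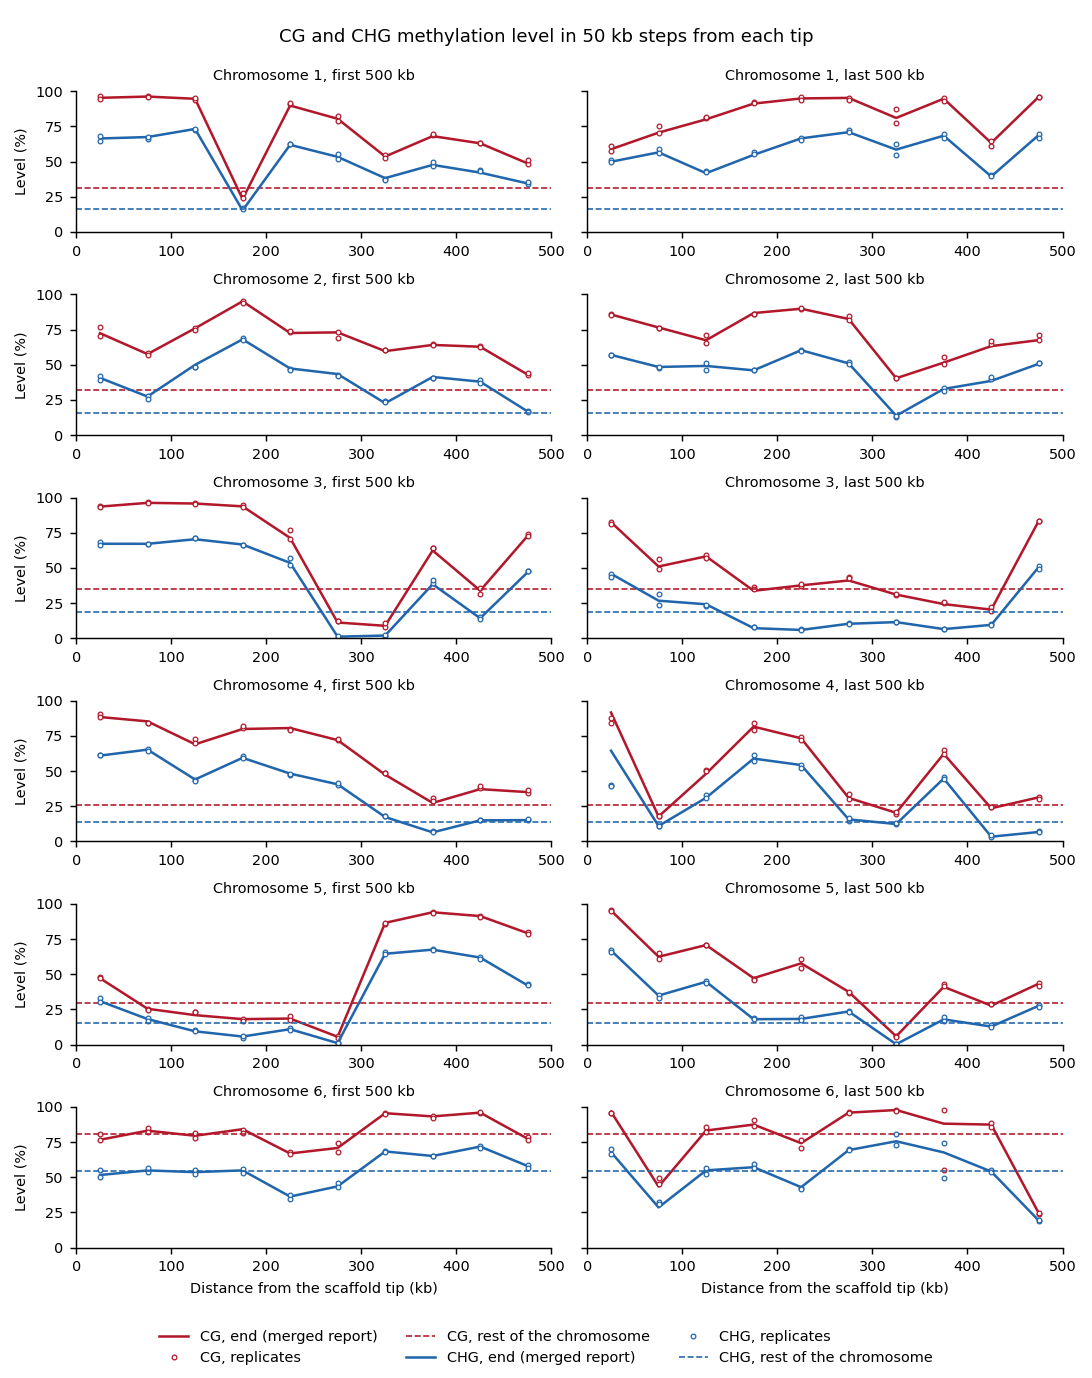
CG (red) and CHG (blue) methylation level in 50 kb steps from the scaffold tip for each of the 12 ends, with the merged report as lines, replicates as open points and the level of the rest of the chromosome as dashed lines. The first end of chromosome 3 dropped to 8.83% in CG at 300 to 350 kb. The first end of chromosome 5 had 47.1% in the outermost step, 5.49% at 250 to 300 kb and high levels (86.5% to 94%) at 300 to 450 kb.

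At the first end of chromosome 4 all 10 steps lay above the 25.9% of the rest in CG. They had 88.4%, 85.3%, 69%, 79.9%, 80.6%, 72%, 47.4%, 27.3%, 37.1% and 35% from the tip inward, so that the inner 4 were the lowest. At the last end of chromosome 5 the CG level was 95.2% in the outermost step, 57.7% at 200 to 250 kb and 5.81% at 300 to 350 kb. Chromosome 3 at its first end was near full methylation to 200 kb, with 93.6% to 96.2% in CG in the first 4 steps, and then had 71.3%, 11.2% and 8.83% in the next 3. The step with 71.3% held a sharp border at 246735, described below, and 86.4% of its scored bins were methylated. Of the cytosines in those first 4 steps 30.3% to 56.4% had no reads, against 0% in the step at 250 to 300 kb. Chromosome 1 at its first end had 94.7% to 96.3% in the outermost 150 kb, 23.4% at 150 to 200 kb and 89.9% in the step beyond. The outermost 3 steps of that end were poorly read, with 51.5% to 73.6% of cytosines without reads, against 12.6% in the low step that followed. The last end of chromosome 1 ran the other way near its tip. It had 58.8% in the outermost step, 94.9% at 200 to 250 kb and 96.1% in the innermost step. The first end of chromosome 5 had 5 of its 10 steps above the median window of its rest, the fewest on chromosomes 1 to 5. It had 47.1% in the outermost step, 18% at 150 to 200 kb and 5.49% at 250 to 300 kb, then 86.5%, 94% and 91.3% up to 450 kb. CG levels at the last end of chromosome 6 ranged from 24.5% in the innermost step to 97.8% at 300 to 350 kb, the second value resting on 19 CG sites.

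The tips were then followed further inward in steps of 0.5 Mb. At 1.5 to 2 Mb, 8 of the 10 tips of chromosomes 1 to 5 had a CG level below that of the rest, but this did not hold further inward. At 2 to 2.5 Mb only the last tip of chromosome 2 (27.2%) and the first tips of chromosomes 3 (26.7%) and 4 (18.2%) were below. The other tips of chromosomes 1 to 5 stood above their rest there, by little at the last tip of chromosome 1 (32.1% against 31.6%). On chromosome 1 the last end had 82% in the end itself, 62.1% at 0.5 to 1 Mb, 41.8% at 1 to 1.5 Mb and 27.3% at 1.5 to 2 Mb, where its rest had 31.6%. On chromosome 2 the last end had 73.1%, 40.2% and 23.6% in its first 3 steps. At the first end of chromosome 4 the second step was at 19.1%, already below the rest. The first ends of chromosomes 3 and 5 differed. Both were higher at 0.5 to 1 Mb, with 73.1% and 73.2%, than in the outermost 0.5 Mb, with 54.1% and 39.1%. The last tip of chromosome 3 also had a step above its end, with 67.4% at 2 to 2.5 Mb and 43.4% in the outermost 0.5 Mb.

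**Figure D4:**
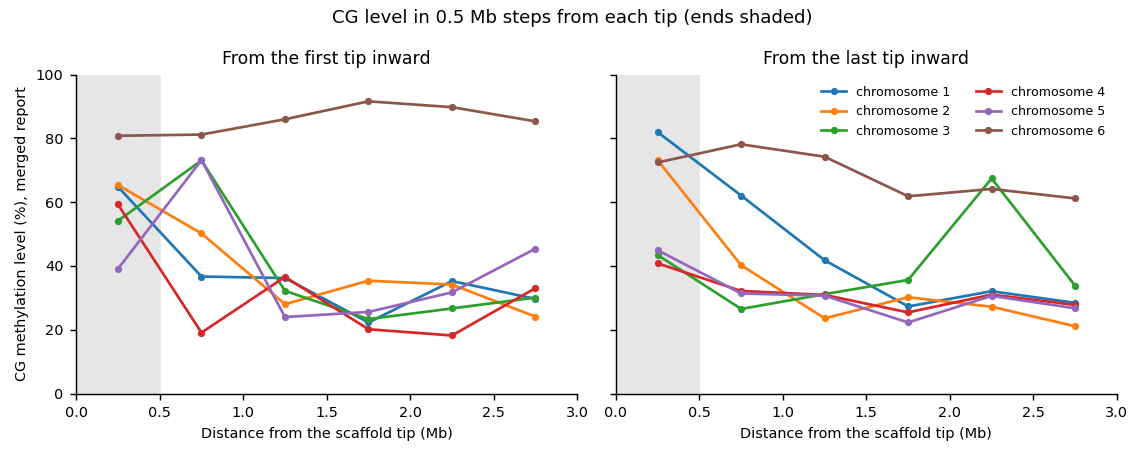
CG methylation level of the merged report in steps of 0.5 Mb from each scaffold tip to 3 Mb inward, for the first tips (left) and last tips (right), with the outermost 0.5 Mb, the ends, shaded. On chromosomes 1, 2 and 4 the shaded step was the highest of the 6 at either tip, while the first tips of chromosomes 3 and 5 peaked at 73.1% and 73.2% in the step beyond and the last tip of chromosome 3 at 67.4% at 2 to 2.5 Mb.

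Methylated bins were more frequent at the ends than in the rest, and unmethylated bins less frequent. A bin was scored where at least 5 CG and 5 CHG sites were covered, which held for 4806 of the 6000 end bins (80.1%) and for 90.5% of the rest. It was called methylated where CG reached 50% and CHG 30%, unmethylated where neither reached 5%, and CG-only where CG reached 50% and CHG stayed below 10%. Methylated bins made up 58.8% of the scored bins of the ends and 36.7% of those of the rest, against 37.7% of all 111934 scored bins. The difference was 22.3 ± 0.0214 percentage points (mean of replicates, SD, n = 2), and 33.7 points where only sites with at least 20 reads were used. No end or rest had a mean above 10.5 reads, so that setting kept only unusually deep sites. The number of bins it scored is not given here. Unmethylated bins made up 20.2% at the ends and 40.7% in the rest, against 39.8% of all bins, and CG-only bins made up 7.01% at the ends and 6.46% in the rest, against 6.48% of all bins. By end, the methylated share ran from 38.3% at the last end of chromosome 3 to 85.6% at the last end of chromosome 1, and 28.2% to 36.8% in the rest of chromosomes 1 to 5. On chromosome 6 it was 81.9% at the first and 71.7% at the last end, against 82.7% in the rest. CG-only bins were most frequent at the last end of chromosome 3, 13.4% of its scored bins against 6.33% in the rest of chromosome 3.

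Bins were called by their own CG and CHG levels, so within a class these levels could differ only inside its limits. Within methylated bins the levels at the ends and in the rest of chromosomes 1 to 5 were close. Their CG level was 94.3% at the ends and 94.1% in the rest, with a difference of 0.177 ± 0.0705 percentage points in the replicates. Their CHG level was 66.1% at the ends and 64.6% in the rest, a difference of 1.35 ± 0.129 points. Their CHH level was slightly lower, 1.81% at the ends and 1.99% in the rest, a difference of -0.195 ± 0.0269 points (SD, n = 2). Among CHH trinucleotides CAA was the most methylated, with 5.35% at the ends and 5.25% in the rest, while CTC, at 0.39% and 0.478%, was among the least. Unmethylated bins, below 5% by definition, had a CG level of 0.408% at the ends and 0.387% in the rest.

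Bins nearest to the tips were methylated at 10 of the 12 ends, where 37.7% of all scored bins, 58.8% of those of the ends and 82.7% of those in the rest of chromosome 6 were methylated. The outermost scored bin of those ends had a CG level of 83.5% (first end of chromosome 5) to 98.3% (last end of chromosome 5) and lay 0 to 10837 bp from the tip. At the last end of chromosome 2 and the first end of chromosome 6 its CG level was 0% in the merged report and in both replicates. The merged report held 0 methylated of 181 CG calls at 10 sites in that bin of chromosome 2, which allows up to 1.66%, and 0 of 98 calls at 8 sites in that of chromosome 6, which allows up to 3.06%. These limits cover counting error only. A run of bins of 1 class also ended at any bin that was not scored, so run lengths depended on read coverage too. The longest runs of consecutive methylated bins held 14 (first end of chromosome 1) to 54 bins (first end of chromosome 6, AnagrOXF.S6:227001-281000). At the first end of chromosome 1 the outermost 50 kb had only 11 scored bins, and 100% of them were methylated. Its longest run (256001 to 270000) took in the bins with over 50 reads per cytosine. The longest on chromosomes 1 to 5 were 49 bins at the last end of chromosome 2 (26915001 to 26964000), with CG levels of 95.8% and 94.9% in replicates 1 and 2, and 48 bins at the first end of chromosome 5 (353001 to 401000). The remaining ends had longest runs of 17 to 36 bins. The longest runs of unmethylated bins held 18 bins at the last ends of chromosomes 3 and 5 and 17 bins at the first end of chromosome 1 (174001 to 191000), with CG levels of 0.162% and 0.118% in replicates 1 and 2. At the other ends they held 5 to 14 bins.

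The border of the methylated stretch at the first end of chromosome 3 was sharp. The last methylated 1 kb bin had a CG level of 91.7% over 39 sites and a CHG level of 60.8%, and the next bin inward had 0.903% over 61 sites and 0.67% in CHG. The last 20 covered CG cytosines up to position 246735 averaged 95.7%, with a lowest value of 80%, and 94.9% and 99.3% in replicates 1 and 2. The next 20, from 246895, averaged 0.839%, with a highest value of 9.09%, and 1.1% and 0% in replicates 1 and 2, where 0 of 62 calls in replicate 2 allows a level of up to 4.84%. The stretch that holds the last methylated and the first unmethylated of these cytosines is shown with CG in capitals (AnagrOXF.S3:246716-246915, forward strand). The cytosine at 246735 was methylated in 100% of 10 reads and that at 246895 in 9.09% of 11 reads, and the CG pairs between them had fewer than 10 reads on either strand.
border on chromosome 3: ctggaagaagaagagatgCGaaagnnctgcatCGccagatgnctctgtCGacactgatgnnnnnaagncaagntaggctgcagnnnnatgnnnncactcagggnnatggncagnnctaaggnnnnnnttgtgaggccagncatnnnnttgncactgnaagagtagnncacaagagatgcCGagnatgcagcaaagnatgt
This border lay inside the protein coding gene (PCG) AnagrOXF.S3G002900 (245049 to 247461), whose function the files used here do not give. It was chosen after the values were seen.

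Repeated DNA was more common at most ends. Because A and T were not told apart, 40-mers written as C, G or other were counted, and one found at least 2 times on the 6 chromosomes was called repeated. Repeated 40-mers made up 60.8% of the first and 59.9% of the last end of chromosome 1, against 21.7% of its rest. They made up 53.7% and 50% of the ends of chromosome 2, 49.4% of the first end of chromosome 3 and 47.6% of the first end of chromosome 4, against 20.2% to 25.1% in the rest of these chromosomes. The last ends of chromosomes 3 and 4 and the first end of chromosome 5, with 25.3%, 22.1% and 23.2%, were close to their rests (25.1%, 20.2% and 19.6%). These 3 ends also had the smallest excess in CG on chromosomes 1 to 5, 8.35, 14.9 and 9.66 percentage points. The last end of chromosome 5 had more repeated 40-mers than its rest, 34.5% against 19.6%, yet its CG excess of 15.5 points was close to that of the last end of chromosome 4. On chromosome 6 the first end had 39.6% and the last end 54.2%, against 45.6% in the rest. Of the distinct 40-mers of an end, 2.73% (first end of chromosome 5) to 24.2% (last end of chromosome 1) occurred in at least 1 of the other 11 ends. In the 500 kb windows of the rest of chromosomes 1 to 5, the median share found in the 12 ends was 4.46% to 5.65%, with the highest windows of each chromosome at 10.7% to 17.4%. The shares of the ends of chromosome 3 (15.2% and 9.9%), the last end of chromosome 4 (8.8%) and the first end of chromosome 5 lay below the highest window of their own chromosome. On chromosome 6 the shares were 11.1% (first end) and 18.2% (last end), against a median window of 15.4%. The ends of chromosome 1 shared the most with each other, 9.89% of the first end's 40-mers being found in the last end. GC content was 48.1% to 51.9% at the ends and 48.9% to 50.6% in the rest.

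Bins were next grouped by repeat content on chromosomes 1 to 5. Bins with at least 50% repeated 40-mers made up 46.2% of the end bins and 21.1% of the rest, and there the CG level was close, 78% at the ends and 76.4% in the rest. In these bins the other measures were lower at the ends, with a CHG level of 46.6% at the ends and 48.5% in the rest, a CHH level of 1.71% at the ends and 2.26% in the rest, and methylated bins making up 72% at the ends and 75.1% in the rest. In bins with under 10%, which made up 29.7% of the end bins and 59.8% of the rest, the CG level was 34.4% at the ends and 20.7% in the rest. The replicates gave 34.9% ± 0.445 at the ends and 21% ± 0.616 in the rest (SD, n = 2). In bins between these limits it was 60.3% at the ends and 44.4% in the rest. Repeat content thus differed between ends and rest together with the methylation level, and its part in the difference was not tested. In bins with under 10% all 10 ends of chromosomes 1 to 5 stood above their rest in CG, from 23.8% against 23.3% at the first end of chromosome 3 to 63.6% against 21.7% at the last end of chromosome 2. Over all 12 ends the bins with under 10% gave a mean difference of 12.8 points in CG and 0.142 points in CHH, against 20.9 and 0.299 points over all bins. The ends of chromosome 6 entered these means with CG levels of 69.1% (first end) and 48.6% (last end), against 75.2% in such bins of its rest. This grouping was chosen after the levels had been seen.

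**Figure D5:**
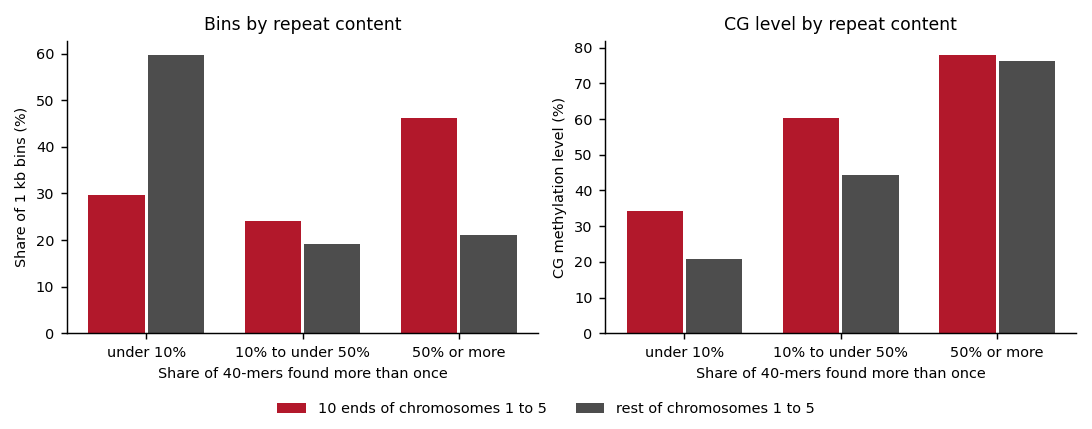
Share of 1 kb bins (left) and CG methylation level of the merged report (right) by share of repeated 40-mers, for the 10 ends (red) and the rest (grey) of chromosomes 1 to 5. Bins with 50% or more repeated 40-mers were 46.2% of the ends and 21.1% of the rest, and the CG level differed more in the bins with few repeats (34.4% at the ends, 20.7% in the rest) than in those with many (78% at the ends, 76.4% in the rest).

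Only parts of the study's lists of clustered PCGs and TEs were used here, and they hold 1 cluster of each, so the counts describe those entries alone. The study formed these clusters from chromatin marks, P1 of the PCGs and T1 of the TEs, and other PCGs and TEs at the ends were not analysed here. It describes P1 as carrying the histone marks H3K27me3 and H3K4me3 and as depleted of cytosine methylation, and T1 as carrying the same marks. Low levels in the listed PCGs therefore came with the choice of cluster and were not particular to the ends. Of the listed PCGs, 25 lay wholly in an end, and 23 of them (92%) had a CG level below 5%, against 1836 of 1911 (96.1%) in the rest. Their median was 0.14%, against 0.152% for the listed PCGs in the rest. AnagrOXF.S3G002900 had the highest level, with a CG level of 77.7% and 84.1% in replicates 1 and 2 over 196 covered sites in the merged report and a CHG level of 52.6% and 48.1%. The nearest listed PCG beyond it, AnagrOXF.S3G003000 (249696 to 251327), had 0.926% and 0.525% in CG. The next highest were AnagrOXF.S5G003200, 125 kb from the first tip of chromosome 5, with 8.97% and 7.32%, and AnagrOXF.S6G210200, 468 kb from the last tip of chromosome 6, with 3.96% and 6.97%. At the last end of chromosome 1, whose CG level was 82%, AnagrOXF.S1G685700 and AnagrOXF.S1G685800 had 0.275% and 0.0988% in CG and lay 48 and 44.6 kb from the tip, within the run of 10 unmethylated bins from 32293001, and were chosen after their values were seen. Of the listed TEs 17 lay in an end, and 10 of those had at least 10 covered CG sites. TE_homo_87330 on the last end of chromosome 6 had a CG level of 47.7% and 46.9% in replicates 1 and 2. TE_homo_87334, which lies almost wholly inside the PCG AnagrOXF.S6G210200 named above and so is largely the same DNA, had 4.14% and 8.85%. TE_homo_43149, 249 kb from the first tip of chromosome 3, had 8.86% and 0%, where 0 of 179 calls allows up to 1.68%. In the merged report 8 of these 10 TEs were below 5%, against 1022 of 1128 (90.6%) of the listed TEs in the rest. TE_homo_57056 and TE_homo_57058, also among these 10, lie inside the listed PCG AnagrOXF.S3G411500. The counts of PCGs and of TEs therefore share some DNA.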

How the data were processed

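DNA of 2 biological replicates of thalli was measured by EM-seq. The authors trimmed reads with Trim Galore, mapped them with Bismark and Bowtie2 to the Oxford strain assembly, removed duplicates, and deposited cytosine reports that give the counts of methylated and unmethylated reads for each cytosine, using SAMtools 1.9 and bedtools 2.27.1 in their processing notes. The merged report came from the reads of both replicates mapped together and is a pooled measurement without an SD. Bismark discards reads with several equally good positions, so copies too alike to tell apart have few reads or none.

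From these counts the level of each cytosine was taken as methylated over all reads at 10 or more reads (5 in a replicate report), the minimum of the study for merged reads, and averaged over sites. Ends of 500 kb, steps of 50 kb, bins of 1 kb (scored with 5 or more covered sites in CG and in CHG) and rest windows of 500 kb were used. Repeated 40-mers, coded as C, G or other base, had at least 8 C or G and occurred 2 times or more on either strand of the 6 chromosomes. Bases were read back from positions, strands and trinucleotides of the reports. Each difference was set against the SD of the 2 replicates, with an exact sign-flip permutation test. The text names all 12 ends, the outermost scored bin, the longest methylated and unmethylated run of each, the 3 deepest bins and the listed PCGs and TEs with the highest CG levels, and other loci where it says that they were chosen after their values were seen. Members and lists were chosen with earlier results of these data known. Coverage minimum, depth range, pooling, end length, step length, bin definition and the left-out replicate were varied. With another end length the rest was redrawn as the bins outside ends of that length. Scripts (Python 3.11.15, NumPy 2.4.6, PyArrow 21.0.0, Matplotlib 3.10.9) were tested on simulated data. Scaffolds outside the 6 chromosomes, and the chromatin data of the study, were not used here.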

Additional observations from a re-analysis of the deposited data

How the results depend on the processing

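The mean differences, ends minus rest, of 20.9 (CG), 14.4 (CHG) and 0.299 percentage points (CHH) kept their direction under all alternatives. In the order CG, CHG, CHH they were 26.2, 16.6 and 0.372 at 20 or more reads, 19.3, 13.4 and 0.273 at 10 to 14 reads, 23.6, 15.8 and 0.327 with the reads of a region pooled, 29.2, 20.8 and 0.488 for ends of 250 kb, 15.9, 9.87 and 0.252 for ends of 1 Mb, 26, 18.1 and 0.375 on chromosomes 1 to 5, and 12.8, 11.5 and 0.142 in bins with under 10% repeated 40-mers. For CG and CHG they were 20.5 and 14.1 at 5 or more reads, 20.4 and 14.1 at sites with at most 27 reads, and 20.5 and 14.1 without the outermost 10 kb. Without a replicate they ranged from 20.8 to 21.1 (CG), 14.3 to 14.4 (CHG) and 0.285 to 0.305 (CHH).

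The outermost minus innermost difference of 23.5 points was 22.5 at 5 or more and 27.9 at 20 or more reads, 18.9 without the outermost 10 kb, 29.8 with steps of 25 kb, 14.3 with steps of 100 kb, 20.1 without the last end of chromosome 4, and 22.7 to 23.8 without a replicate. The steps of 100 kb thus lowered it by more than 1.5 times. The methylated share difference of 22.1 points was 22.4 at 5 or more and 33.7 at 20 or more reads, 29.4 and 16.6 for ends of 250 kb and 1 Mb, 23.2 on chromosomes 1 to 5, 22.7 with CG alone, 22.1 with at least 10 sites per context and 22.3 without either replicate. The depth ratio of 0.889 was 0.822 and 0.906 for ends of 250 kb and 1 Mb, 0.911 on chromosomes 1 to 5, 0.771 from medians, 1.01 over cytosines with reads, 0.858 without bins over 50 reads, and 0.882 to 0.896 without a replicate.

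Single ends reversed as follows. For the first end of chromosome 5 there were differences of -3.88 (CG) and -0.537 (CHG) points at 250 kb. At the last end of chromosome 6 they were 9.58 (CG), 2.61 (CHG) and 0.100 (CHH) at 20 or more reads, 1.18 (CG) and 0.0355 (CHH) with reads pooled, and 0.00325 (CHH) at 1 Mb. At its first end they were 0.145 (CHH) at 20 or more reads and 0.0451 with reads pooled. For the last end of chromosome 3 they were 1.39 (CHG) and 0.141 (CHH) at 250 kb, 0.0228 (CHH) at 5 or more reads, and 2.01 (CHG) in bins with few repeats, where the first end of chromosome 3 had -0.0607 (CHH). The CHH difference of the first end of chromosome 5, which was within the replicate SD, also changed sign, to 0.0982 at 20 or more reads, 0.396 at 1 Mb and 0.023 in bins with few repeats. The number of ends above the rest in CG was 10 when the merged report and both replicates had to agree. The merged report alone also put the first end of chromosome 6 above the rest, by 0.08 points. Counted in that report alone, the number was 9 at 250 kb and 12 at 20 or more reads and with reads pooled. The cause was not tested. Of 468 values of single ends, 254 moved by more than the replicate SD, 15 reversed and 199 did neither.

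Between groups of samples no paired analysis was possible because there was 1 group, while ends and rest were paired within each replicate in all differences given with an SD. The settings for repeat content, bins over 50 reads and the last end of chromosome 4 were chosen after seeing the data. With 2 replicates the spread was poorly known, and the exact test had no p below 0.5. Depth limited the poorly read tips most, where levels rested on the readable sites.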
